A study of Mus musculus with 10 samples.

Results

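Interferon-gamma, the CXCR3 chemokine axis and the CXCR6 chemokine axis were followed through 7 genes in bulk RNA from 10 MB-49 tumors. The genes were taken by symbol (Ifng, Cxcl9, Cxcl10, Cxcl11, Cxcr3, Cxcl16 and Cxcr6), and all 7 were found among the 24202 genes of the table. MB-49 is a mouse bladder cancer cell line. In both groups 100000 cells were injected below the flank skin of hLrrc32 knock-in mice, which carry the human gene for GARP, a surface protein that holds latent TGF-beta. PIIO-1, an antibody to GARP, was given into the peritoneum at 200 ug per mouse on days 6 and 9 (5 tumors), and 5 tumors came from PBS mice. Tumors were taken on day 10 and made into cell suspensions for RNA. Neither the age of the mice nor the timing of PBS is given in the sources used here, and the labels do not say whether each tumor of a group grew in its own mouse, so the p-values cover only the variation among these 10 samples, which may be technical.

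Interferon-gamma is the main cytokine of activated T cells and NK cells. It acts on neighbouring macrophages, dendritic cells and tumor cells, which then transcribe Cxcl9, Cxcl10 and Cxcl11. The proteins of these genes attract cells that carry CXCR3, chiefly activated CD8 T cells, type 1 helper T cells and NK cells, so the cytokine and its chemokines form a loop that draws more producers into a tumor. CXCL16 works differently: it is made as a membrane protein by macrophages and dendritic cells, can be shed by the proteases ADAM10 and ADAM17, and is read by CXCR6, a receptor of effector and tissue-resident T cells.

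The 3 CXCR3 ligand genes are neighbours. In the GENCODE annotation of GRCm38 they lie on the minus strand of chromosome 5, Cxcl9 at 92321347 to 92328079, Cxcl10 at 92346638 to 92348889 and Cxcl11 at 92359544 to 92365485, within 44.1 kb. Cxcl11 is typed there as a polymorphic pseudogene, that is, a gene that codes for protein in some mouse strains but not in the reference strain. Its transcript was nonetheless counted in every tumor, and its RNA level says nothing of a protein. The other genes lie apart, Ifng on chromosome 10 (118441046 to 118445892, plus strand), Cxcr6 on chromosome 9 (123806475 to 123811760, plus strand), Cxcl16 on chromosome 11 (70453983 to 70459984, minus strand) and Cxcr3 on chromosome X (101731535 to 101734269, minus strand). Exons of Cxcl10, Cxcl11, Ifng and Cxcl16 overlap those of Art3, Gm2673, Gm49751 and Zmynd15. Gm49751 lies on the same strand as Ifng, so no strand setting would separate their overlapping reads. For the other overlaps, on opposite strands, the strand setting of the counting is not given, so overlapping reads cannot be told apart. Art3 held 18.8 to 44.9 and Zmynd15 154 to 405 normalized counts in these tumors. Gm2673 and Gm49751 have no row under those symbols.

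The promoters of 4 genes are shown because Cxcl9 and Cxcl10 are neighbouring ligand genes with the highest levels of the set, and Ifng and Cxcr6 varied together between tumors. Each window holds 250 bases before and 50 after a RefSeq start on GRCm38.p6, 5′ to 3′ on the gene's strand, namely chr5:92328030-92328329 for Cxcl9, chr5:92348840-92349139 for Cxcl10, chr10:118440796-118441095 for Ifng and chr9:123806227-123806526 for Cxcr6. Capitals mark matches on either strand to the interferon-stimulated response element (GAAA, any 2 bases, GAAA), the gamma-activated site TTCNNNGAA, the T-box site AGGTGTGA or the NF-kB consensus.
Cxcl9: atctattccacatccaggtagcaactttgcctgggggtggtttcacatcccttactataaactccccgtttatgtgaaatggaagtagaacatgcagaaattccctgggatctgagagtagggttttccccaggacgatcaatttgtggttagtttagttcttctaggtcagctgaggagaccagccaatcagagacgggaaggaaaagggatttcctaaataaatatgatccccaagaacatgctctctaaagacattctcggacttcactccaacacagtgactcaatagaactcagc
Cxcl10: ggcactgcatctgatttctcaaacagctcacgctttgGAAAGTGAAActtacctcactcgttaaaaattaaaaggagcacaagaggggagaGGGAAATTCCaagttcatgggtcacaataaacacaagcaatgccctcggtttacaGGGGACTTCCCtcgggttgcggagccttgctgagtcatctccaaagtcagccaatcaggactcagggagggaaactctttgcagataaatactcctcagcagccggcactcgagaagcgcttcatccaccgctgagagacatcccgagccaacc
Ifng: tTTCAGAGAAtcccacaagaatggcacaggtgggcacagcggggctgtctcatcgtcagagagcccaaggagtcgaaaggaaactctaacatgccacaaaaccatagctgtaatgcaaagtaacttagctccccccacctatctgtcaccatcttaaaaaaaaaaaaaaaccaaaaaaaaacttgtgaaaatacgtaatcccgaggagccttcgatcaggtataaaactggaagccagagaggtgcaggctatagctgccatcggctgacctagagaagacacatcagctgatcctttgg
Cxcr6: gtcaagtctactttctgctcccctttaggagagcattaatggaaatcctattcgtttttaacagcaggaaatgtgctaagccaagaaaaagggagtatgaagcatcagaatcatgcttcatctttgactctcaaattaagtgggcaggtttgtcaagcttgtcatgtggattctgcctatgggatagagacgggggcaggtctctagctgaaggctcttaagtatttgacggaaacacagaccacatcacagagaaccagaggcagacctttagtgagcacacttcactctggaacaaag
The Cxcl10 window held an interferon-stimulated response element at bases 38 to 47, counted from its first base, and NF-kB matches at bases 92 to 101, 147 to 156 and 148 to 157, the last 2 overlapping. The Ifng window held a gamma-activated site at bases 2 to 10. No match was found in the windows of Cxcl9, Cxcr6 and Cxcr3. Of all 32851 promoter windows, 3.44% held the interferon-stimulated response element, 8.30% the gamma-activated site, 1.28% the T-box site and 8.46% the NF-kB consensus. A match describes the letters only.

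The libraries differed in depth and in the shares of globin and mitochondrial reads. The table's normalized counts stand for 18843192 to 37581521 whole reads per tumor, with the fewest in PBS tumor 4, and the least covered gene of the set, Cxcr3, still had 59 reads there. Globin reads made up 0.0183% to 0.0410% of the PBS libraries and 0.0272% to 0.180% of the PIIO-1 libraries, and mitochondrial reads 0.986% to 2.22% and 1.29% to 3.12%, each highest in PIIO-1 tumor 5. Of 12 epithelial and urothelial genes 9 averaged 10 normalized counts or more, led by Krt8 (50275 to 65634) and Krt18 (29446 to 35185), while the urothelial genes Upk2 and Upk3a were at or under 3 reads in 8 of 10 tumors. Mouse Lrrc32, to which reads of the knocked-in human gene count only as far as they align, stood at 94.0 ± 27.1 (SD, n = 5) in PBS and 95.8 ± 17.8 in PIIO-1 tumors.

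Per kb of exon, Cxcl10 was the most abundant of the genes at 2765 ± 675 normalized counts per kb (SD, n = 10), followed by Cxcl9 at 1159 ± 344. Cxcl16 stood at 439 ± 99.1, Ifng at 286 ± 113, Cxcr6 at 177 ± 78.5, Cxcr3 at 78.4 ± 32.4 and Cxcl11 at 54.7 ± 15.6. This order held for neighbours in 10 of 10 tumors except for Cxcl16 over Ifng and Cxcr3 over Cxcl11, which held in 9 of 10. The mean log2 ratio of Cxcr3 to Cxcl11 per kb was 0.47 ± 0.49 (SD, n = 10) and ran from -0.061 to 1.68. Whether these 2 levels differ was not tested. Cxcl10 and Cxcl9 thus exceeded their receptor gene Cxcr3 in every tumor.

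**Figure D1:**
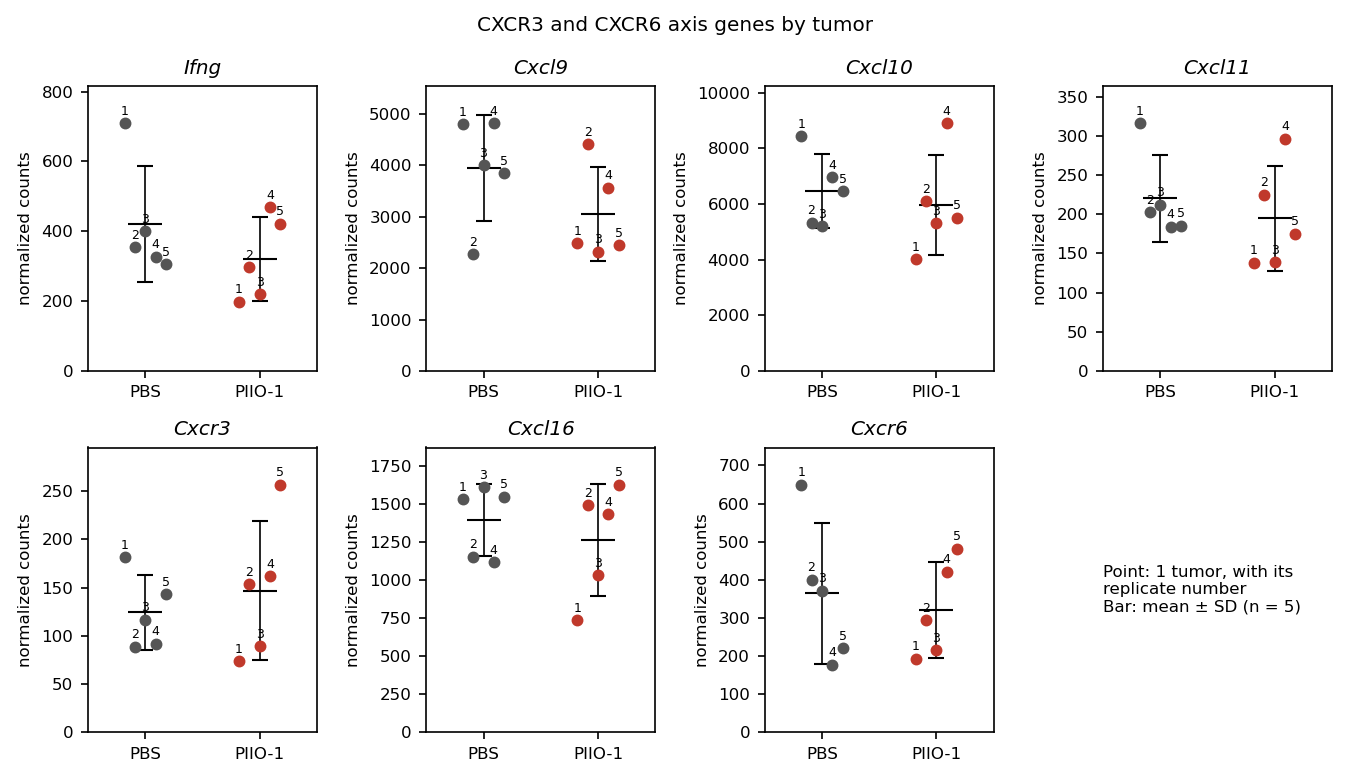
Normalized counts (y axis, from 0) of the 7 genes in each PBS and PIIO-1 tumor; points are tumors labelled by replicate number, and bars are the mean ± SD of 5 tumors. The groups overlap for every gene; PBS tumor 1 is the highest tumor for Ifng, Cxcl11 and Cxcr6, and PIIO-1 tumor 1 the lowest for 5 of the 7 genes.

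The comparison of PIIO-1 with PBS asks whether giving this antibody to GARP shifted this loop in the tumor. No group was given another antibody, so blocking GARP and giving antibody cannot be told apart. Ifng and Cxcl9 had the largest differences, both toward lower levels in PIIO-1 tumors, and Cxcr3 alone had a higher mean. None of the 7 genes passed the test over all genes (limma with Benjamini-Hochberg adjustment, threshold 0.05), which called 0% of the 16767 genes tested. On the recovered reads edgeR called 0% and DESeq2 0.0179%, with 0 of the 7. At an unadjusted p under 0.05 limma counted 5.63%, edgeR 5.81% and DESeq2 6.04% of all genes, and each 0 of the 7. Groups did not overlap for 0.394% of all genes with higher and 0.459% with lower values in PIIO-1 tumors, and for 0 of the 7. The 7 differences had a median of -0.18 against 0.0027 for all genes, and 6 of 7 were negative against 48.9% of all genes. That count was 4 of 7 without PIIO-1 tumor 1, where the median was -0.013, and 7 of 7 without PIIO-1 tumor 5. Without PBS tumor 1 it was 5 of 7, with a median of -0.071. Differences here and below are PIIO-1 minus PBS on the log2(normalized count + 1) scale, with the standard error (SE) of limma.

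Ifng, the cytokine at the head of the loop, stood at 709.7, 354, 401, 328 and 307 normalized counts in PBS tumors 1 to 5. In PIIO-1 tumors 1 to 5 it stood at 198, 298, 219, 469.9 and 422. PIIO-1 tumors 1, 2 and 3 lay below every PBS tumor, and tumors 4 and 5 lay above all PBS tumors but the first. The difference was -0.40 (SE 0.28, 95% interval -1.01 to 0.21), a 0.76-fold level with an interval from 0.50-fold to 1.16-fold. Its adjusted p by limma was 0.859, and an exact two-sided permutation test gave p = 0.254 where 0.00794 is the smallest possible. Without PBS tumor 1 the difference was -0.19.

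Cxcl9, which is induced mainly by interferon-gamma, stood at 4804, 2269.5, 4003, 4820.2 and 3845 normalized counts in PBS tumors 1 to 5. In the PIIO-1 tumors it stood at 2488, 4411, 2318, 3564 and 2447. PIIO-1 tumors 1, 3 and 5 were low, but PBS tumor 2 was lower than any of them. The difference of -0.37 (SE 0.23, 95% interval -0.87 to 0.12) had an adjusted p of 0.837 by limma and p = 0.198 by the exact permutation test. It was -0.56 without PBS tumor 2 (unadjusted p = 0.0111 and adjusted p = 0.968 by limma) and -0.22 without PBS tumor 4 and PIIO-1 tumor 5.

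Cxcl10, which type I interferons and NF-kB signals also induce, stood at 8446, 5330.1, 5195, 6963 and 6469.8 in PBS tumors 1 to 5. In PIIO-1 tumors it stood at 4019.7, 6099.8, 5318, 8905 and 5512. PIIO-1 tumors held both the lowest and the highest value. The difference was -0.14 (SE 0.19, 95% interval -0.56 to 0.27; exact permutation p = 0.532). Leaving out PIIO-1 tumor 4 gave -0.30, and leaving out PIIO-1 tumor 1 gave -0.013.

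Cxcl11, the third CXCR3 ligand gene, stood at 316, 203, 212, 184 and 185 in PBS tumors 1 to 5. In PIIO-1 tumors it stood at 138, 225, 139, 296 and 175. As for Ifng, 3 PIIO-1 tumors lay below every PBS tumor, here tumors 1, 3 and 5. The difference was -0.21 (SE 0.22, 95% interval -0.70 to 0.28; exact permutation p = 0.444), and -0.071 without PBS tumor 1.

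Cxcr3, the receptor of these ligands, stood at 181, 88.8, 117, 92.1 and 143 in PBS tumors 1 to 5. In PIIO-1 tumors it stood at 73.6, 154, 89.5, 162 and 257. The lowest and highest tumors were both PIIO-1 tumors. The difference was 0.15 (SE 0.32, 95% interval -0.55 to 0.86; exact permutation p = 0.706). Its sign rested on PIIO-1 tumor 5: without that tumor it was -0.082.

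Cxcl16, the membrane-bound ligand, stood at 1528, 1152, 1609, 1116 and 1545 in PBS tumors 1 to 5. In PIIO-1 tumors it stood at 734, 1489, 1032, 1433 and 1624. PIIO-1 tumors 1 and 3 lay below every PBS tumor while tumors 2 and 4 lay within the PBS range and tumor 5 just above it. The difference of -0.18 (SE 0.20, 95% interval -0.62 to 0.27; exact permutation p = 0.444) was 0.0025 without PIIO-1 tumor 1.

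Cxcr6, the receptor of CXCL16, stood at 649.6, 401, 372, 178 and 221 in PBS tumors 1 to 5. In PIIO-1 tumors it stood at 193, 294, 215, 421 and 482. It had the widest spread of the 7, a 3.65-fold range between PBS tumors 1 and 4. The difference was -0.12 (SE 0.35, 95% interval -0.90 to 0.65; exact permutation p = 0.794), and 0.12 without PBS tumor 1. The intervals of Cxcr3 and Cxcr6 reach 1.81-fold and 1.57-fold higher levels, and that of Ifng a 2.01-fold lower one, so the 5 tumors a group leave changes of that size possible.

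**Figure D2:**
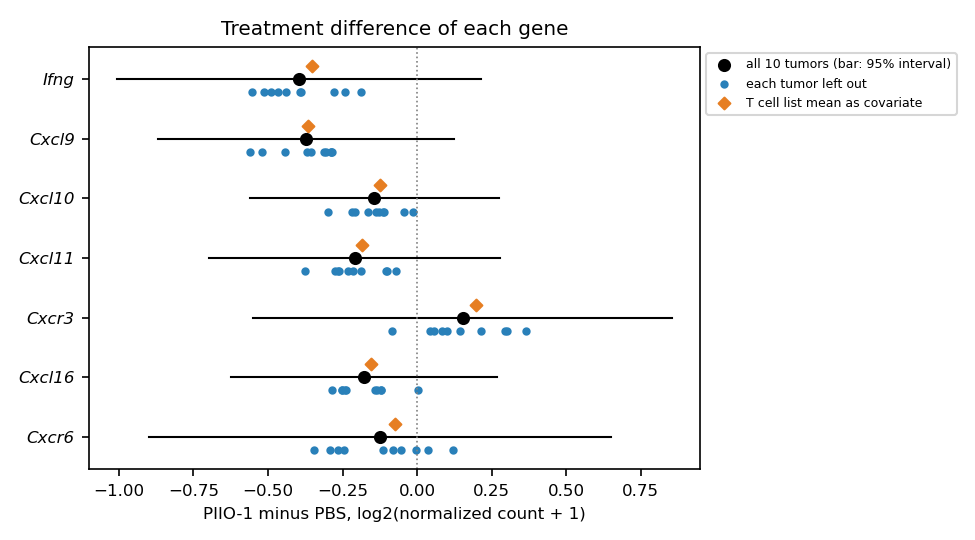
Difference between PIIO-1 and PBS (x axis, log2 of normalized count + 1) for each gene. Black points and bars give the estimate and 95% interval from all 10 tumors, blue points the estimates with each tumor left out, and orange diamonds the estimate with the T cell list mean as a covariate; every black bar crosses 0, and blue points lie on both sides of 0 for Cxcr3, Cxcl16 and Cxcr6.

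Cxcr3, Cxcr6 and Ifng are transcribed by lymphocytes, so their levels were set beside those of the T cells. The summed level of 15 T cell genes ranged from 5600 to 10743 normalized counts in PBS and from 4208 to 11495 in PIIO-1 tumors, lowest in PIIO-1 tumor 1 and highest in PIIO-1 tumor 5. All 15 were measured, 0 passed, 11 were negative against 48.9% of all genes, and their median difference was -0.056. On the recovered reads 8 of the 15 were negative with edgeR (median -0.0082) and 7 with DESeq2 (median 0.00016). Single tumors also set the sign of the limma median. Leaving out the first tumor of either group gave a median of 0.15, and leaving out PIIO-1 tumor 3 gave 0.092. Leaving out the fourth tumor of either group gave -0.15, and leaving out PIIO-1 tumor 5 gave -0.24. The 9 NK cell genes summed to 9525 to 14733 and 6728 to 16258. In bulk RNA fewer cells of a type and less RNA per cell cannot be told apart. Between tumors the log2 level of Ifng had an SD of 0.53 (n = 10), against 0.25 once the mean log2 level of the T cell list was subtracted. The same step took Cxcr6 from 0.63 to 0.29 and Cxcr3 from 0.56 to 0.26.

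Relative to the T cell list, Ifng was the gene that separated the groups most. Its log2 ratio to the list mean was 0.13, -0.25, 0.057, -0.0087 and -0.23 in PBS tumors 1 to 5. In PIIO-1 tumors 1 to 5 it was -0.36, -0.50, -0.29, -0.20 and -0.71. All PIIO-1 tumors but the fourth lay below every PBS tumor. The difference was -0.35 (SE 0.12), a 0.78-fold ratio, with p = 0.0238 in an exact two-sided permutation test and p = 0.143 after Benjamini-Hochberg adjustment over the 6 ratios compared, so it did not pass. With the median of the T cell list in place of its mean the difference was -0.27 (exact permutation p = 0.119), and over 17 alternatives the adjusted p ran from 0.0952 to 0.643. In the limma fit with the T cell list mean as a covariate, Ifng differed by -0.35 with an unadjusted p of 0.00951 and an adjusted p of 0.503, where the adjusted p ran from 0.503 to 0.9996 over 23 alternatives.

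The 2 receptor genes did not separate the groups relative to T cells. Cxcr3 over the T cell list differed by 0.20 (SE 0.16; adjusted exact permutation p = 0.524) and Cxcr6 by -0.080 (SE 0.19; adjusted exact permutation p = 0.848). The PBS ratios of Cxcr6 split, near 0 in tumors 1 to 3 and at -0.89 and -0.70 in tumors 4 and 5, while the PIIO-1 ratios lay between -0.52 and -0.31.

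Cxcl16 was set beside 11 macrophage and monocyte genes, which summed to 47197 to 72692 normalized counts in PBS and 38175 to 71207 in PIIO-1 tumors. Its log2 ratio to the mean of that list was -1.41, -1.55, -1.42, -1.68 and -1.71 in PBS tumors and -1.96, -1.77, -1.90, -1.92 and -1.49 in PIIO-1 tumors. Every PIIO-1 tumor but the fifth lay below every PBS tumor. The difference was -0.25 (SE 0.11; exact permutation p = 0.0556, adjusted p = 0.167), but with the median of the list it was 0.083, so its direction depends on how the list is summarised. Cxcl9 over Cxcl10 differed by -0.23 (SE 0.22; adjusted exact permutation p = 0.524) and Cxcl9 over Ifng by 0.022 (SE 0.34; adjusted exact permutation p = 0.913), and the sign of the latter turned negative in 5 of the 10 fits that each left out 1 tumor.

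**Figure D3:**
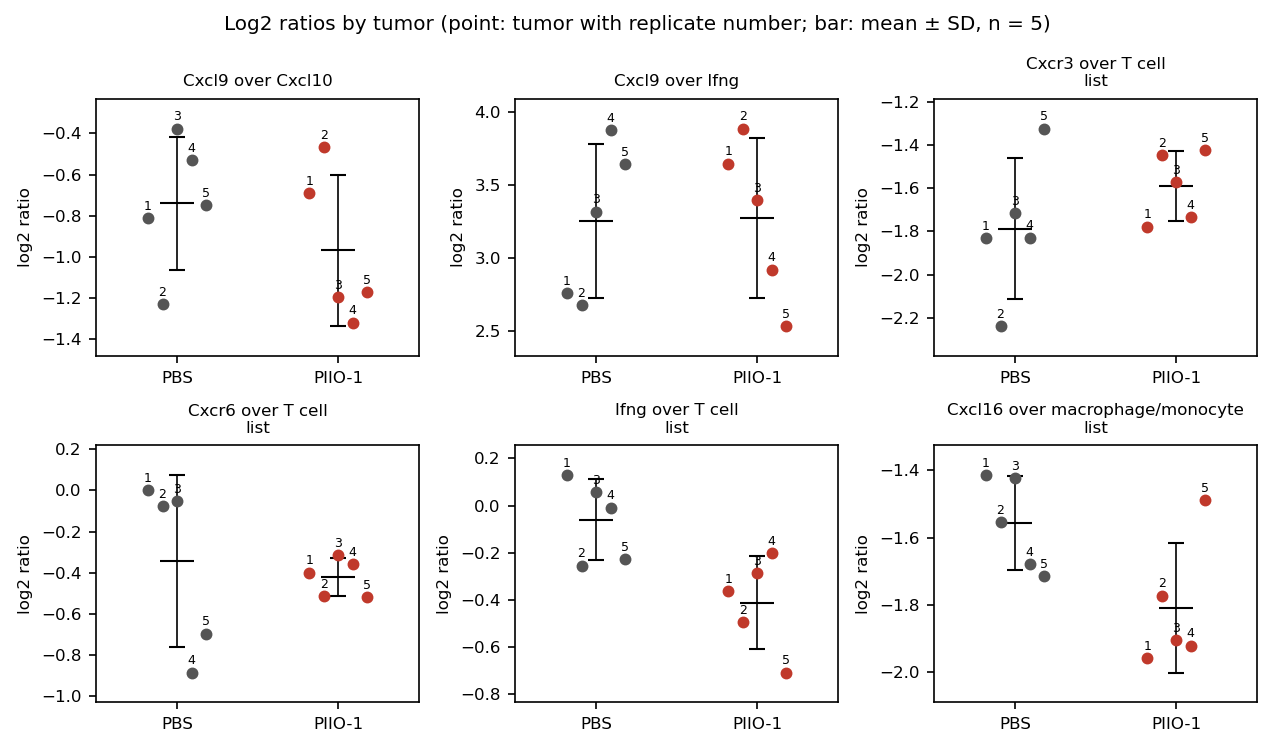
Log2 ratios (y axes, each with its own range) of the 6 pairs compared, by tumor; points carry the replicate number and bars are the mean ± SD of 5 tumors. For Ifng over the T cell list 4 PIIO-1 tumors lie below the lowest PBS value of -0.25, and the Cxcr6 panel shows the PBS tumors spread more widely than the PIIO-1 tumors.

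Across tumors of both groups the genes varied together to unequal degrees. All 21 pairs had a positive Pearson r over the 10 tumors, and 4 passed a two-sided permutation test with 100000 resamples after Benjamini-Hochberg adjustment over the 21. These were Ifng with Cxcl11 (r = 0.87, p = 0.00146, adjusted p = 0.0153; rho = 0.68, permutation p = 0.0343), Ifng with Cxcr6 (r = 0.86, p = 0.00102, adjusted p = 0.0153; rho = 0.84, permutation p = 0.0037), Cxcl10 with Cxcl11 (r = 0.82, p = 0.00406, adjusted p = 0.0213; rho = 0.64, permutation p = 0.0545) and Cxcr3 with Cxcl16 (r = 0.82, p = 0.00324, adjusted p = 0.0213; rho = 0.76, permutation p = 0.0152). By Spearman's rho 0 of 21 passed. Without the 2 tumors farthest from the median of the first gene named in each test, r was 0.73 for Cxcl11 with Ifng (PBS tumor 1 and PIIO-1 tumor 4 left out), 0.74 for Ifng with Cxcr6 (PBS tumor 1 and PIIO-1 tumor 1), 0.52 for Cxcl10 with Cxcl11 (PBS tumor 1 and PIIO-1 tumor 4) and 0.82 for Cxcr3 with Cxcl16 (PIIO-1 tumors 1 and 5). No pair passed without PBS tumor 1 or without PIIO-1 tumor 1, and 9 passed without PIIO-1 tumor 5. With values centred within each treatment the same 4 pairs passed, and Cxcr3 with Ifng as well (r = 0.81).

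The lowest r values were those of Cxcl9 with the receptor genes. Its r was 0.075 with Cxcr6 and 0.26 with Cxcr3 (adjusted permutation p of r = 0.83 and 0.485). The rho values were -0.10 and 0.33 (adjusted permutation p of rho = 0.785 and 0.433). The low r with Cxcr3 rested on PIIO-1 tumor 5: it was 0.68 without that tumor (adjusted permutation p = 0.09), and 0.90 without it and PBS tumor 4 (adjusted permutation p = 0.0222). The r of Cxcl9 with Cxcr6 was 0.49 without both tumors (adjusted permutation p = 0.202). With its neighbours Cxcl10 and Cxcl11, Cxcl9 had r = 0.64 and 0.61 (adjusted permutation p of r = 0.0913 and 0.106). The rho values were 0.50 and 0.47 (adjusted permutation p of rho = 0.234 and 0.269). PIIO-1 tumor 5 shows the contrast, with the highest Cxcr3 and Cxcl16 and the second highest Cxcr6 of the 10 tumors but the eighth highest Cxcl9. Whether the r of Cxcl9 differs from that of Cxcl10 or Cxcl11 was not tested.

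**Figure D4:**
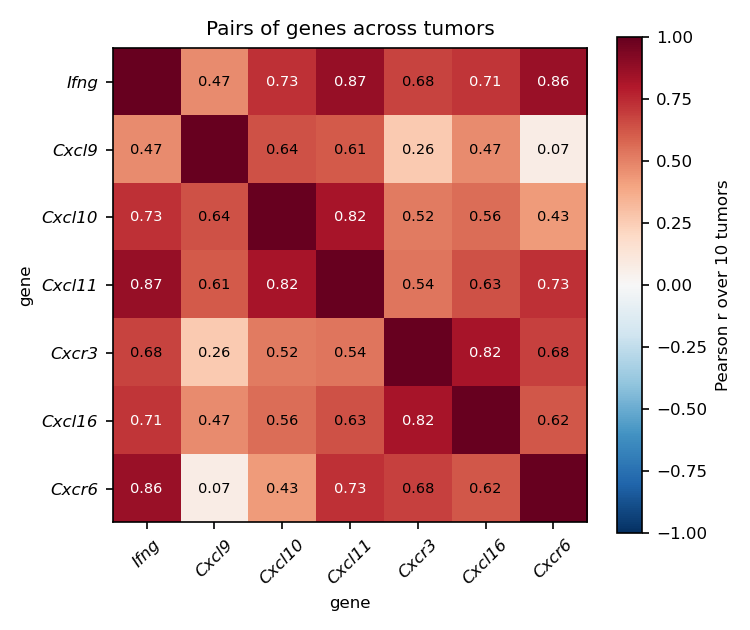
Pearson r over 10 tumors (color scale from -1 to 1, printed in each cell off the diagonal) between the log2 levels of the 7 genes on both axes. Off the diagonal, the cells of Ifng with Cxcl11 (0.87) and with Cxcr6 (0.86) are the darkest. Those of Cxcl9 with Cxcr6 (0.07) and Cxcr3 (0.26) are the palest.

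The genes most like each member over the 10 tumors were ranked by Pearson r of log2 levels centred within treatment, among the 13109 other genes that averaged 50 normalized counts or more. For Ifng the leading named genes included Cd3g, a chain of the T cell receptor complex (r = 0.96), after Snf8 and Rap2c (r = 0.96 each), and Cxcr6 ranked 77th. For Cxcr6 they were Fpr2, a formyl peptide receptor (r = 0.97), Rgs16 (r = 0.97) and Cd3d (r = 0.96). Cd3d is another chain of the T cell receptor complex. In the ranking for Cxcr6, Ifng came 44th. For Cxcr3 they were Ppm1j, Prkch and Lsp1 (r = 0.98 each), and Cxcl16 ranked 238th. For Cxcl16 they were Cyp4v3, Dtx1 and Fuca2 (r = 0.98 each). Cxcl10 was closest to Slc30a1, to Gbp11, an interferon-induced GTPase gene (r = 0.96 each), and to Nod1 (r = 0.95), with Cxcl11 at rank 229. Cxcl11 was closest to the proteasome gene Psmb3 (r = 0.97), Nubp2 (r = 0.97) and Tapbpl, which edits MHC class I peptides (r = 0.96), with Ifng at rank 59. Cxcl9 was closest to Tlr12 (r = 0.96), Ppm1d and Tmem44 (r = 0.94 each), and its best placed fellow gene was Cxcl10 at rank 769. With 10 tumors and this many genes such ranks are a description.

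Genes of the same pathway were taken from lists chosen with earlier results of these data known, so counts within a list are a description. In the interferon-gamma response list, 23 of 24 measured genes had negative differences against 48.9% of all genes, with a median of -0.25, and 8 had an unadjusted p under 0.05, against 5.63% of all genes, while 0 passed. Cxcl9, Cxcl10 and Cxcl11 are in that list, and 20 of the other 21 were negative. The immunoproteasome gene Psmb10 averaged 9299.5 ± 702 normalized counts under PBS against 7831 ± 1089 under PIIO-1 (-0.26, SE 0.088). Tap1, which carries peptides to MHC class I, differed by -0.25 (SE 0.097), and the interferon-induced GTPase genes Gbp3 and Igtp by -0.44 (SE 0.15) and -0.37 (SE 0.13). The count of 23 became 20 with PIIO-1 tumor 1 left out, and 24 with PBS tumor 4 and PIIO-1 tumor 5 both left out. Of the 12 receptor and signal genes 6 were negative, against 48.9% of all genes, and 0 passed. Among these 12 genes, 3 were negative with PIIO-1 tumor 1 left out and 8 with PIIO-1 tumor 4 left out. Those with the smallest p included Nlrc5, a regulator of MHC class I genes, at -0.14 (SE 0.10), Ciita at -0.24 (SE 0.23) and the phosphatase gene Ptpn2 at 0.14 (SE 0.13).

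Upstream of Ifng, 14 of 16 inducer genes were kept (Il2 and Il21 had means under 10), of which 8 were negative against 48.9% of all genes and 0 passed, with a median of -0.0084. On the recovered reads 6 of 14 were negative with edgeR and 5 of 14 with DESeq2. The balance also depended on single tumors, with 1 of 14 negative once PIIO-1 tumor 1 was left out. It was 2 of 14 once PBS tumor 1 or PIIO-1 tumor 3 was. Leaving out PIIO-1 tumor 4 or 5 made 10 of 14 negative. Il12rb1, a chain of the interleukin-12 receptor, averaged 3389.7 ± 374 under PBS against 2554 ± 544 under PIIO-1 (-0.42, SE 0.13, adjusted p = 0.837 by limma). Il12b, a chain of interleukin-12 itself, stood at 25.2 ± 10.7 and 43.0 ± 25.7, a difference of 0.68 (SE 0.37), and Stat4 and Runx3 differed by 0.26 (SE 0.21) and 0.22 (SE 0.21). All 5 genes of ligand processing and scavenging had positive differences, from 0.035 to 0.35, against 8571 of the 16767 genes tested, and 0 passed. Leaving out PBS tumor 1 or PIIO-1 tumor 1 or 3 turned 1 of them negative. Among them were Dpp4, whose enzyme trims the CXCR3 ligands (0.35, SE 0.23), Mmp9 (0.12, SE 0.081) and the CXCL16 sheddase genes Adam17 (0.054, SE 0.058) and Adam10 (0.050, SE 0.057). Of 11 kept resident and effector T cell genes 7 were positive, against 8571 of the 16767 genes tested, and 0 passed. Their median of 0.11 became -0.017 when PBS tumor 2 was left out, -0.12 for PBS tumor 4, 0.053 for PIIO-1 tumor 2, 0.0067 for PIIO-1 tumor 5, and -0.21 when PBS tumor 4 and PIIO-1 tumor 5 were left out together. Those with the smallest p were Cd69 at 0.45 (SE 0.36), Havcr2 at 0.24 (SE 0.12), Prf1 at -0.27 (SE 0.18) and Gzmb at -0.25 (SE 0.20).

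The rest of the CXC family had positive differences. All 13 kept genes (Cxcl13 and Cxcl15 had means under 10) were positive, against 8571 of the 16767 genes tested, with a median of 0.51. Of the 13, 5 had an unadjusted p under 0.05, against 5.63% of all genes, and 0 passed. The platelet chemokine gene Ppbp averaged 194 ± 83.3 under PBS against 505 ± 347 under PIIO-1 (1.31, SE 0.40). The neutrophil attractant gene Cxcl1 differed by 0.56 (SE 0.22). Cxcl5, also a neutrophil attractant gene, and Cxcl14 were among the 5, at 1.13 (SE 0.48) and 1.09 (SE 0.50). They averaged 7.74 ± 2.47 and 7.60 ± 3.92 normalized counts under PBS. Only their PIIO-1 means, 23.1 ± 22.1 and 20.5 ± 18.0, took them over the minimum of 10, so their differences are not independent of the filter. With a minimum mean of 50, 9 of 9 kept genes were positive, with a median of 0.51. Leaving out PBS tumor 4 and PIIO-1 tumor 5 together gave the 13 genes a median of 0.24, and leaving out PIIO-1 tumor 5 alone gave 0.34. Leaving out PIIO-1 tumor 1 or 4 left 12 of 13 positive. Red blood cell, neutrophil and immediate early stress genes also had positive differences, and 0 of them passed. The 5 red blood cell genes summed to 5488 to 12848 normalized counts in PBS and 8372 to 58643 in PIIO-1 tumors, and the 6 neutrophil genes, which include Cxcr2 of this list, to 12863 to 26832 and 15302 to 37026. The neutrophil median of 0.38 became 0.23 when PBS tumor 4 was left out and 0.17 when PIIO-1 tumor 5 was. With both left out it was -0.0079, with 3 of 6 positive. The 8 immediate early stress genes, which Fos and Jun exemplify and which can respond to handling of cells, summed to 82945 to 116825 and 100847 to 177740, with a median of 0.55 and 5 of 8 at an unadjusted p under 0.05. All 3 sums were highest in PIIO-1 tumor 5. The part of these genes in the CXC differences was not tested.

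**Figure D5:**
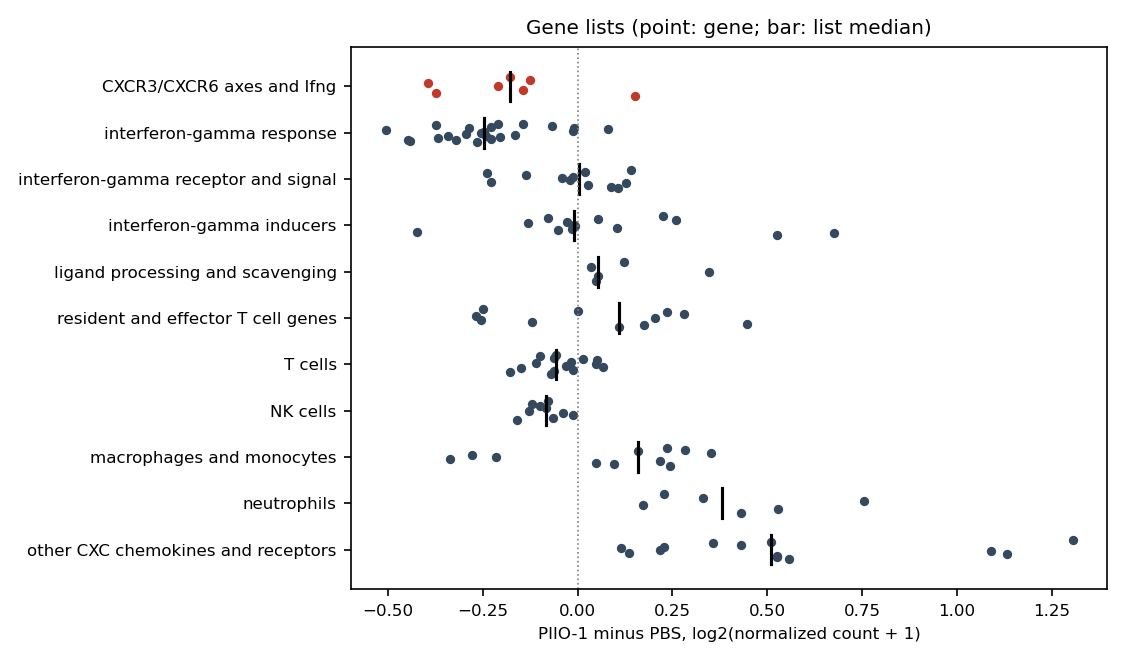
Difference between PIIO-1 and PBS (x axis, log2 of normalized count + 1) of each gene in 11 lists on the y axis; points are genes and black bars list medians. In the response list 23 of 24 genes lie left of 0 around a median of -0.25, and the other CXC genes lie right of 0 around 0.51, while no gene shown passed the test over all genes.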

How the data were processed

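Bulk RNA-seq of 10 tumors was analysed from 1 table. Per the submitters' processing notes, reads were handled with HISAT2, featureCounts and DESeq2 on GRCm38; the sources used here give no versions, annotation or strand setting. The values the authors deposited are DESeq2-normalized counts, treated as a non-negative signal, in 10 columns. Dividing each column by its step (0.817 to 1.56 normalized counts per read) gave whole reads for 100% of values within 0.001 read. These reads were used only for edgeR and DESeq2 alternatives. Tumors were grouped by their treatment label, and the titles, which call the PIIO-1 tumors a4D3, gave the replicate numbers.

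The 16767 genes that averaged 10 normalized counts or more were tested with limma 3.58.1 in R 4.3.3 on log2(value + 1), with an intensity trend and two-sided Benjamini-Hochberg adjustment over all genes at 0.05. In all, 6 log2 ratios were compared by exact permutation over 252 regroupings of the tumors, and 21 gene pairs by permutation of Pearson r. Alternatives were pseudocounts of 0.5 and 5, TMM and upper-quartile scaling, no filter, a minimum mean of 50, no trend, array weights, a block on the replicate number, edgeR 4.0.16, DESeq2 1.42.0 (Wald, no independent filtering), the T cell list mean as a covariate, list medians, and each tumor left out. PBS tumor 4 (fewest reads) and PIIO-1 tumor 5 (most globin and mitochondrial reads) were left out together as an alternative chosen after seeing the data. On data simulated for PIIO-1 against PBS with 16767 genes, limma found 64% of the genes given a 1.5-fold change and 82% of those given a 2-fold change.

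The 7 genes and all lists were chosen with earlier results of these data known. Other genes named are the 4 (pathway lists) or 2 (cell type lists, values not all printed) with the smallest p of a list, the 3 most correlated named genes of each member, with 1 gene not reported here, and genes used to check the labels, which were chosen after the data were seen. Levels per kb use merged GENCODE exons (release M21), in which 99.1% of symbols matched 1 gene. RefSeq promoter windows were matched by symbol for 5 of the 7 genes.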

Additional observations from a re-analysis of the deposited data

Results flagged for a closer look

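In PBS tumor 1, Ifng at 709.7 and Cxcl11 at 316.2 normalized counts lay far above the other 4 PBS tumors, whose highest values were 401 and 212. The gap to the next tumor took 0.766 and 0.787 of the group's range, above Dixon's 95% critical value for 5 samples. These gaps are on normalized counts and not on the log2 scale of the tests. Of 26 groups of values examined in this way (7 genes and 6 ratios in 2 treatments) 2 passed, and chance alone gives about 1 in 20. Both flags fell in PBS tumor 1, for genes that varied together (r = 0.87), so they are not independent. The same tumor had the second highest T cell, NK cell and interferon-gamma response list means of the 10 tumors. The part of these cells in both values was not tested.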

How the results depend on the processing

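The limma count of 0 genes called stayed 0 under the alternatives run except DESeq2, which called 3 genes, none of them among the 7. With 1 tumor left out in turn the differences ran from -0.55 to -0.19 for Ifng, -0.56 to -0.29 for Cxcl9, -0.30 to -0.013 for Cxcl10, -0.38 to -0.071 for Cxcl11, -0.082 to 0.36 for Cxcr3, -0.28 to 0.0025 for Cxcl16 and -0.34 to 0.12 for Cxcr6, and no call was gained. The ratios ran from -0.40 to -0.28 for Ifng and -0.22 to 0.0064 for Cxcr6 over the T cell list, 0.084 to 0.31 for Cxcr3 over it, -0.33 to -0.21 for Cxcl16 over the macrophage list, -0.36 to -0.14 for Cxcl9 over Cxcl10 and -0.13 to 0.21 for Cxcl9 over Ifng. The number of pairs called ran from 0 to 9 and the r of Cxcl9 with Cxcr6 from -0.22 to 0.32. By Spearman's rho 0 pairs passed, and that of Cxcl9 with Cxcr6 was -0.10. Without PBS tumor 4 and PIIO-1 tumor 5 together, 10 pairs passed and Cxcr3 differed by -0.18. The list median turned Cxcl16 over the macrophage list to 0.083. The cause of these changes was not tested.

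Deviations of tumors with the same replicate number had correlations between -0.21 and 0.095 over all genes, so no shared deviation was seen. Whether the numbers mark a pairing cannot be told from these values. With the replicate number as a block 0 genes were called, 885 genes had an unadjusted p under 0.05 against 944 without it, and Ifng still differed by -0.40. The blocked sign-flip test of Ifng over the T cell list gave exact p = 0.0625, the smallest that 5 pairs allow, and the block changed no call. Cxcr3 rests on as few as 59 reads in a tumor; the other 6 genes had at least 114.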

Other observations

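PIIO-1 tumor 5 ranked high for T cell genes and low for interferon response genes. It was the first of the 10 tumors for the T cell list mean, with rank 2 for dendritic cells and rank 3 for NK cells, but rank 9 for the interferon-gamma response list. In PBS tumor 1 and PIIO-1 tumor 4 the same lists stood high together, with ranks 2 and 3 for T cells and 2 and 1 for the response list. PIIO-1 tumors 1 and 3 were low in both, with ranks 10 and 9 for T cells and 10 and 8 for the response list. These are values of single tumors, noticed in the data, and no test was run on them.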
